A study of Mus musculus with 29 samples.

Results

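Respiratory complex I takes electrons from NADH, passes them to ubiquinone and pumps protons across the inner mitochondrial membrane. Its core subunits carry the flavin and the iron-sulfur clusters in the peripheral arm, which reaches into the matrix, or form the proton pumps of the membrane arm. The accessory subunits surround the core, and assembly factors help to build the complex without remaining in it. The core subunits of the membrane arm are encoded by the mitochondrial genome (the mt-Nd genes), whereas the core subunits of the peripheral arm and all accessory subunits are nuclear. White adipocytes gain mitochondria as they differentiate.

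Nduf genes were defined as all genes of the deposited count table whose symbol starts with Nduf. There were 46 of them among 11959 genes. The annotation holds 51 such symbols, and Ndufa4l2, Ndufa11b, Ndufb4c, Ndufs6b and Ndufab1-ps were not analysed here. Of the 46, 7 encode nuclear core subunits, 29 accessory subunits and 8 assembly factors (Ndufaf1 to Ndufaf8). Ndufa4 carries the family name but its product is now placed in complex IV, and Ndufb1-ps is annotated as a noncoding transcript, so both were counted apart. The 46 genes lie on 18 chromosomes. Near-identical coding copies elsewhere in the genome exist for 11 of them (at least 95% identity over at least 100 bases), and 18 overlap a gene on the opposite strand. The values of these genes are uncertain to that extent, because the sources do not state how such reads were counted.

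RNA was measured in 3T3-L1 cells, a mouse preadipocyte line that turns into white adipocytes in culture. Cells received 10 µM KDM5-C70 (C70, an inhibitor of the KDM5 histone demethylases) or the DMSO vehicle from day -2, at full confluence, until day 0. Cells taken after day 0, with vehicle or C70, received differentiation medium from day 0 until they were taken or until day 2. Those taken at day 7 received adipocyte medium thereafter. RNA was taken at days 0, 1, 2 and 7. There were 29 libraries: vehicle had 3 at days 0, 1 and 2 and 4 at day 7, and C70 had 4 at every day. No group is a genetic model, all cells are of a single line, and nothing in the labels says that replicates were separate cultures, so P values measure the spread between these samples, which may be technical.

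Total counts ranged from 16320275 to 24037170 per library. Of the marker genes, 8 of 8 adipocyte and 7 of 8 preadipocyte or fibroblast markers (all but Cd34) were in the table. The summed level of the adipocyte markers rose from 1291 to 1413 CPM (counts scaled to the library size) in vehicle at day 0 to between 24867 and 28976 CPM at day 7. Of the markers of other cell types, 0 of 3 endothelial, 1 of 5 macrophage (Cd68), 1 of 4 muscle (Des) and 1 of 4 brown or beige adipocyte genes (Ppargc1a) were in the table. Vehicle replicate 1 at day 7 stood apart from the other vehicle libraries of that day: its 46 Nduf genes summed to 7434 CPM, the highest of the group, whose lowest library had 5607 CPM and whose mean was 6129 ± 877 CPM (SD, n = 4). The main counts at day 7 are therefore given with and without it. Levels per kilobase, and medians of the Nduf classes and arms, are given with it only.

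Before the values, sequence motifs near the starts of the genes are described. The motifs were chosen after sequences had been looked at, and a link between them and the expression values was not tested. Promoter sequences (250 bases before to 50 after the start, RefSeq, GRCm38.p6) were found for 40 of the 46 genes. They were searched on both strands for textbook motifs of factors known for nuclear genes of the respiratory chain. The NRF1 motif, a match of 10 bases that leaves the fifth base free, was present in 9 of the 40 genes (22.5%), against 12.5% of the 9007 genes of the table with such a sequence. The YY1 motif AAGATGGC was present in 8 (20%), against 5.7%. The GABPA motif CCGGAAG was present in 6 (15%), against 21.7%, and the motif AAGGTCA of the oestrogen-related receptors in 3 (7.5%), against 3.51%. These are descriptions of letters, not of binding.

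All 8 matches to the YY1 motif in the Nduf genes lay close behind the start. All 8 matches were on the sense strand, from 11 to 39 bases after the start, whereas 43.8% of the 559 matches in genes of the table were on the sense strand after the start. In 7 of the 8, the ATG inside the motif was an annotated start codon, against 29% of the matches in the table. The 8 windows are shown because they let the position of the motif be compared between genes, with the motif in capitals and up to 10 bases on each side:
Ndufs7 (chr10:80249463-80249490, plus strand): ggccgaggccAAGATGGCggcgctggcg
Ndufa9 (chr6:126849098-126849125, minus strand): attgtgggagAAGATGGCggccgccgtc
Ndufa3 (chr7:3617385-3617412, plus strand): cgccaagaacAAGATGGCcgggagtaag
Ndufs6 (chr13:73328433-73328459, minus strand): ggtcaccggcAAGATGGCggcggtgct
Ndufs4 (chr13:114388045-114388069, minus strand): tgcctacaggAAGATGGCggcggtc
Ndufb8 (chr19:44555393-44555414, minus strand): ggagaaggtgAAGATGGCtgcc
Ndufc1 (chr3:51408916-51408943, minus strand): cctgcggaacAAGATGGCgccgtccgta
Ndufaf8 (chr11:120098934-120098961, plus strand): ggcagggcccAAGATGGCggcgccctcg
All but the Ndufaf8 match overlap annotated coding sequence, and the Ndufaf8 match lies in an untranslated exon.

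Of the 9 genes with the NRF1 motif, 6 passed both thresholds as lower after C70 than in vehicle at day 7. So did 20 of all 46 Nduf genes and 4.85% of all genes. Without vehicle replicate 1, Ndufa5, Ndufa6 and Ndufaf4 of the 6 still passed, among 7 Nduf genes. At day 2, 22 of the 46 Nduf genes passed (13.6% of all genes), and of the 9 with the motif only Ndufs6 was among them. Whether the motif has a part in the C70 difference was not tested. The matches of these 6 genes are shown for reference, 3 of them in Ndufb4. The 6 were picked by their call at day 7. Matches of Ndufa8, Ndufaf5 and Ndufs5, which were not called at that day, are not shown. The selection therefore says nothing about a link between the motif and the C70 difference. The motif is again in capitals, with 10 bases on each side:
Ndufaf4 (chr4:24897960-24897989, plus strand): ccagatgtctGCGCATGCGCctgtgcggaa
Ndufa11 (chr17:56717692-56717721, plus strand): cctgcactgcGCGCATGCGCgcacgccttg
Ndufa5 (chr6:24527697-24527726, minus strand): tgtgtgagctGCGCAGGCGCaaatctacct
Ndufa6 (chr15:82354249-82354278, minus strand): ccgtggcaccGCGCGTGCGCacgctgaagg
Ndufs6 (chr13:73328479-73328508, minus strand): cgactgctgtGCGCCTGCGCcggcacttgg
Ndufb4 (chr16:37654540-37654569, minus strand): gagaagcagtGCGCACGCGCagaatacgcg
Ndufb4 (chr16:37654428-37654457, minus strand): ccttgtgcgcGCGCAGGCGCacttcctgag
Ndufb4 (chr16:37654371-37654400, minus strand): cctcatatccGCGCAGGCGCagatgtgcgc
The matches of Ndufaf4 and Ndufa11 and the first of Ndufb4 lie outside annotated exons and the other matches in untranslated exons.

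Levels were compared between genes as CPM per kilobase of transcript. In vehicle cells at day 0, Ndufa4 was the highest at 314 ± 13.4 CPM per kilobase (SD, n = 3), and high levels were also found for Ndufa7 at 112 ± 7.00 and Ndufa6 at 108 ± 6.15, which did not differ beyond their spread. The lowest were the assembly factor genes Ndufaf4 at 2.86 ± 0.156, Ndufaf6 at 3.17 ± 0.624 and Ndufaf3 at 4.76 ± 0.266 CPM per kilobase, together with Ndufb4 at 5.21 ± 0.402, whose reads near-identical copies can share. At day 7 in vehicle the order at the top was Ndufa4 at 594 ± 85.6, Ndufa6 at 323 ± 49.8 and Ndufb10 at 300.2 ± 48.8 CPM per kilobase (n = 4), of which Ndufa6 and Ndufb10 lay within their spread. Ndufaf8 at 10.8 ± 3.35 and Ndufaf5 at 11.1 ± 0.911 were then the lowest. At both days the lowest ranks were held by assembly factor genes and Ndufb4.

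**Figure D1:**
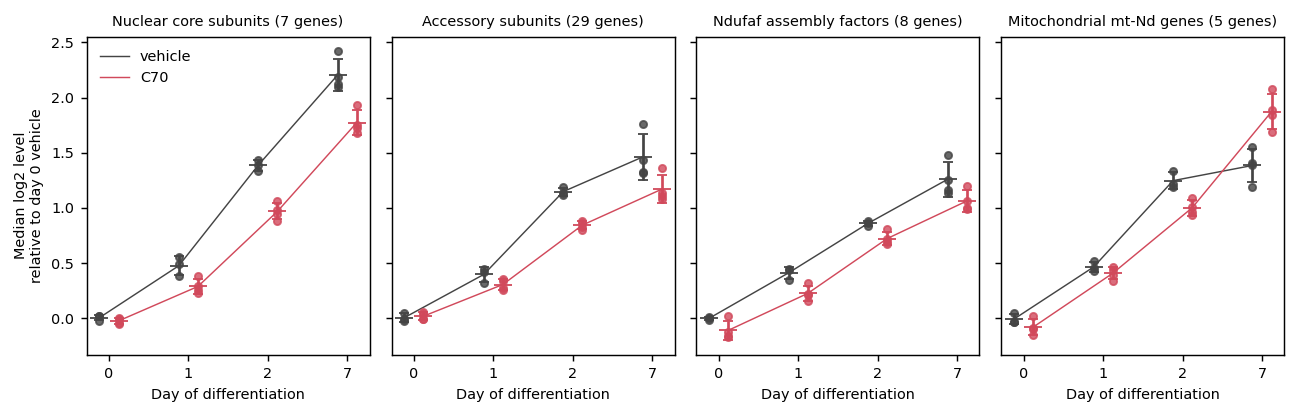
Median log2 level of the core, accessory, assembly factor and mitochondrially encoded genes in each library, relative to vehicle at day 0 (days evenly spaced on the axis, not to scale). Points are libraries, and bars show the mean and SD of 3 or 4 libraries. Core genes reach 2.21 ± 0.15 in vehicle and 1.77 ± 0.11 after C70 at day 7. The mitochondrially encoded genes show the opposite order at that day. Under quantile normalization mt-Nd1 changes sign, and mt-Nd1, mt-Nd4 and mt-Nd5 do not pass by adjusted P.

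The first comparisons followed the genes through differentiation in vehicle cells. All 46 Nduf genes were higher at day 7 than at day 0 (adjusted P value under 0.05 and a log2 fold change beyond 0.32 in size, the thresholds of the study, edgeR quasi-likelihood test), against 36.7% of all genes. The median log2 fold change was 1.47 over the 46 genes and 0.01 over all genes. It was 2.25 for core genes, 1.43 for accessory genes, 1.26 for assembly factor genes and 0.92 for Ndufa4. Without vehicle replicate 1 at day 7, 45 of the 46 were called and the median of the 46 was 1.34 (share of all genes not counted). Ndufs1, the largest subunit of the peripheral arm, rose from 76.5, 80.5 and 80.9 CPM at day 0 to 425, 421, 417 and 380 CPM at day 7, the largest rise among the 46 (log2 fold change 2.37 ± 0.048, adjusted P = 4.53e-28). Ndufs8, another core subunit, rose the least of the core genes (1.18 ± 0.080). Ndufaf8, the partner of Ndufaf5, rose the least of all (0.55 ± 0.15), and it did not pass the fold threshold without vehicle replicate 1 at day 7 (0.31).

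The rise was spread over all steps. From day 0 to day 1, 29 of 46 genes were higher (26.2% of all genes) with a median of 0.45 on the log2 scale. From day 1 to day 2, 42 were higher (22.3% of all genes) with a median of 0.66, and from day 2 to day 7, 32 were higher (26.6% of all genes) with a median of 0.47. No Nduf gene was called lower at any of these steps (27.9%, 22% and 26.7% of all genes), although by adjusted P alone Ndufa4 (-0.23 ± 0.068) and Ndufc2 (-0.18 ± 0.063) were lower at day 7 than at day 2 (36.3% of all genes). Without vehicle replicate 1 at day 7, 25 genes were called in either direction at the last step and the median was 0.37 (share of all genes not counted). The peripheral arm and the membrane arm differed in their medians by step. Membrane arm genes had the higher median at day 1 (0.54 against 0.35), and peripheral arm genes at day 7 against day 2 (0.73 against 0.40), as a description without a test. Ndufaf4 gained most of its rise early, with log2 fold changes of 0.99 ± 0.085 from day 0 to day 1 and 0.97 ± 0.074 from day 1 to day 2, and 0.23 ± 0.065 thereafter. Ndufaf3, its known partner, had 0.08 ± 0.13 (not called) at the first step and 0.96 ± 0.11 at the last. Ndufs8 was not called at the first step (-0.14 ± 0.087).

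The next comparisons set C70 against vehicle within a day, which asks how inhibition of the demethylases before induction changes the later course. At day 0, when the treatment ended, no Nduf gene was called with the fold threshold (5.89% of all genes were called higher and 3.09% lower). DESeq2 and limma-voom also called 0, and 6 of the 46 had an unadjusted P under 0.05. By adjusted P alone, Ndufa7 was higher (0.23 ± 0.081), where 10.9% of all genes were. It read 63.3, 56.8 and 57.1 CPM in vehicle and 72, 65.1, 74.5 and 65.2 CPM after C70. Its groups did not overlap, which was so for 4 Nduf genes with C70 higher and 4 with C70 lower (18% and 16% of all genes).

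**Figure D2:**
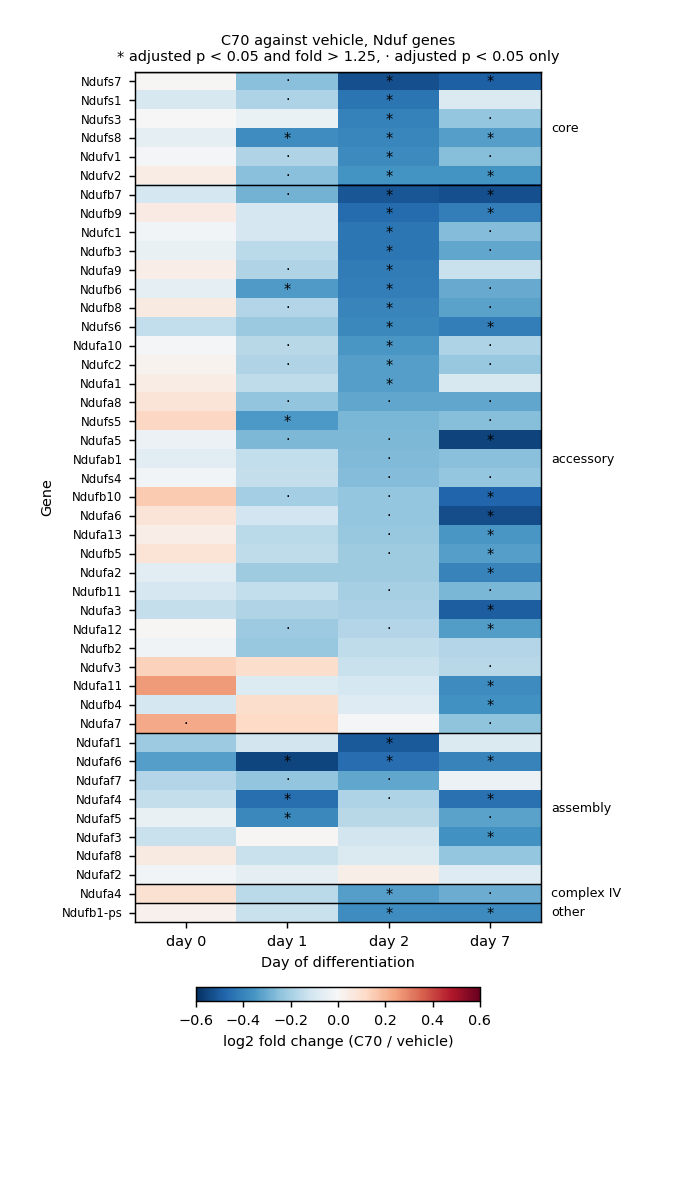
Log2 fold change between C70 and vehicle for 45 of the 46 Nduf genes (rows, by class and by their value at day 2) at days 0, 1, 2 and 7. Stars mark genes past both thresholds (adjusted P under 0.05, log2 fold change beyond 0.32) and dots those past the first alone. All 6 core genes shown carry a star at day 2, and 3 of them at day 7.

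At day 1, 6 Nduf genes were lower after C70 and none was higher, where 7.8% of all genes were called lower and 13.6% higher. By adjusted P alone 21 were lower (19.7% of all genes). Of the 46 values, 42 were below 0, with a median log2 fold change of -0.17 against -0.01 over all genes. In 27 of the 46 every C70 library was below every vehicle library, against 23.8% of all genes. Assembly factor genes made up 3 of the 6. Ndufaf6 was lowest, at 6.53, 7.00 and 5.84 CPM in vehicle and 4.88, 4.53, 3.75 and 4.38 CPM after C70 (-0.55 ± 0.15, adjusted P = 0.0044), at low counts. Ndufaf4 read 20.4, 22.1 and 19.4 CPM in vehicle and 15.5, 14.5, 15 and 15.2 CPM after C70 (-0.45 ± 0.076, adjusted P = 1.56e-05). The libraries of the 2 groups did not overlap for either gene. Ndufaf5, which modifies Ndufs7, was also lower (-0.39 ± 0.13, adjusted P = 0.015). The other 3 were the core subunit gene Ndufs8 (-0.37 ± 0.084), the membrane arm gene Ndufb6 (-0.34 ± 0.080) and Ndufs5 (-0.34 ± 0.13), of which Ndufs5 has a near-identical copy. Without C70 replicate 1 at day 1, 3 genes were called. Across the fits that left out 1 library, Ndufs5 lost its call in 4, Ndufaf5 in 2, and Ndufb6 and Ndufs8 in 1 each. The groups of Ndufs5 overlapped, at 10.1 to 13.8 CPM in vehicle and 7.92 to 10.8 CPM after C70.

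Ndufs8 did not rise in the first step in either group. Its levels were 53.3, 54.7 and 47.2 CPM in vehicle and 51.2, 47.7, 50.4 and 49.0 CPM after C70 at day 0. At day 1 they were 46.7, 46.9 and 47.2 CPM in vehicle and 31.4, 37.2, 36.0 and 40.3 CPM after C70. It was the only Nduf gene called lower from day 0 to day 1 in C70-pretreated cells (-0.45), where 22 others were higher (25.8% of all genes were called higher and 26.8% lower). The difference between the groups in that step was -0.31 ± 0.12 (adjusted P = 0.0575) and did not pass the test.

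At day 2, 22 Nduf genes were lower after C70 (13.6% of all genes) and none was higher (16.9% of all genes). By adjusted P alone 34 were lower (25.4% of all genes). Values were below 0 for 45 of the 46, with a median of -0.31 on the log2 scale against 0.00 over all genes. In 39 of the 46, every C70 library was below every vehicle library, against 29% of all genes. No fold change reached 1.5 at day 2, and at that threshold none of the 46 would be called.

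The nuclear core subunits were lower as a whole at day 2, 7 of 7, with a median log2 fold change of -0.39. Ndufs7, which holds the last iron-sulfur cluster before ubiquinone, had the largest difference of the 46. It read 82.1, 79.2 and 87.4 CPM in vehicle and 55.9, 56.6, 62.1 and 55.5 CPM after C70 (-0.53 ± 0.080, adjusted P = 1.95e-06), 69.4% of the vehicle level. Ndufs1 had the smallest standard error of the 46, at 254, 254 and 253 CPM in vehicle and 189, 190, 188 and 184 CPM after C70 (-0.44 ± 0.044, adjusted P = 9.66e-10). Lower values were also found for Ndufs3 (-0.40 ± 0.067), which has a near-identical copy, Ndufs8 (-0.39 ± 0.080), Ndufv1 (-0.38 ± 0.054), which binds NADH and the flavin, and Ndufv2 (-0.36 ± 0.072). For each of the 7, every C70 library was below every vehicle library.

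Accessory genes were lower in 11 of 29 cases at day 2, with a median of -0.27. Of the membrane arm genes 9 of 19 were called, and of the 9 accessory genes of the peripheral arm 2 (Ndufa9 and Ndufs6). The lowest was Ndufb7, a small subunit on the intermembrane space side, at 88.6, 88.1 and 84.6 CPM in vehicle and 58.6, 64.8, 59.9 and 60.6 CPM after C70 (-0.52 ± 0.085, adjusted P = 6.93e-06). Ndufb9 followed (-0.46 ± 0.10), with a near-identical copy. At the other end, Ndufa7 read 82.5, 79.7 and 79.9 CPM in vehicle and 75.5, 81.4, 82.2 and 82.0 CPM after C70 (-0.01 ± 0.079, adjusted P = 0.943), with overlapping groups. Ndufa4 of complex IV was called at -0.33 ± 0.068 and lay close to the fold threshold.

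Assembly factor genes were lower in 2 of 8 cases at day 2, with a median of -0.18. Ndufaf1, which belongs to the complex that builds the membrane arm, read 30.9, 30.7 and 33.5 CPM in vehicle and 19.3, 25, 21.7 and 23.2 CPM after C70 (-0.50 ± 0.077, adjusted P = 2.21e-06). Ndufaf6 was lower again (-0.46 ± 0.13). Ndufaf2, a late assembly factor, read 14, 14.4 and 13.8 CPM in vehicle and 14.1, 15.5, 13.7 and 14.3 CPM after C70 (0.03 ± 0.074, adjusted P = 0.738), the only Nduf value above 0 at that day, and its groups overlapped.

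**Figure D3:**
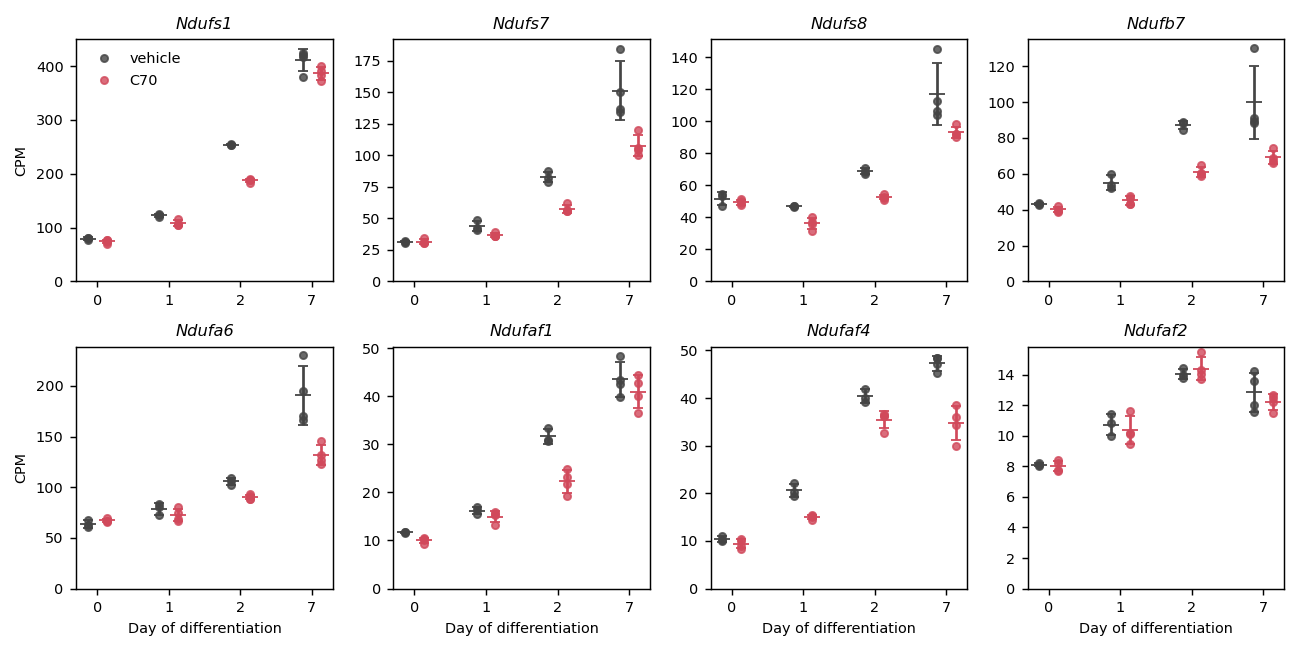
Level of 8 Nduf genes in every library, in CPM, by day (days evenly spaced) for vehicle and C70. Points are libraries, and bars show the mean and SD of 3 or 4 libraries. Ndufs1 is separated at day 2 and rejoins vehicle at day 7, Ndufs7 and Ndufb7 remain below it, and Ndufaf2 overlaps at every day.

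The summed adipocyte markers were also lower after C70 at days 1 and 2, and overlapped at day 7. Their summed level at day 2 was 24107 to 24994 CPM in vehicle and 13902 to 15410 CPM after C70, with all 8 in the table. At day 7 it was 24867 to 28976 CPM in vehicle and 27258 to 29960 CPM after C70. The members did not all follow the sum. At day 7 every C70 library was above every vehicle library for Adipoq, Cd36, Lpl and Plin1 (16.5% of all genes), and the other members overlapped. Plin1 overlapped between the groups at days 1 and 2. The 7 preadipocyte or fibroblast markers summed to 3442 to 3515 CPM in vehicle and 5877 to 6250 CPM after C70 at day 2, and to 2219 to 2906 CPM and 4746 to 5478 CPM at day 7. The single genes found of the other marker lists also moved. Cd68, which macrophages express, was higher after C70 at days 0, 1 and 2 (log2 fold changes 3.85, 2.90 and 2.06) and at 1.06 to 2.79 CPM after C70 against 1.92 to 2.69 CPM in vehicle at day 7, with the other 4 macrophage markers not in the table. Ppargc1a, a coactivator of mitochondrial genes, was higher at days 1, 2 and 7 (0.62, 1.03 and 0.73), and Des at days 0, 1 and 2 (0.86, 1.51 and 0.47). The part of these lists and genes in the Nduf result was not tested, and in bulk RNA fewer differentiated cells and less RNA per cell cannot be told apart. Of the listed nuclear genes of complexes II, III and IV, 12 of 23 were lower at day 2 (13.6% of all genes), all 23 values were below 0 and the median was -0.33. At day 7, 12 of 23 were lower as well (4.85% of all genes), with all 23 below 0 and a median of -0.33. Without vehicle replicate 1, edgeR called 0 of the 23 at day 7. In that fit 18 were lower by adjusted P alone, 21 had an unadjusted P under 0.05, all 23 were below 0 and the median was -0.22. The shares of all genes in that fit were not counted, so these counts cannot be set against those of other genes.

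Across the 46 genes, the C70 difference at day 2 was more negative for genes with a larger rise from day 0 to day 7 in vehicle (Pearson's r = -0.57, Spearman's rho = -0.56). Over all 11959 genes r was -0.43. The 2 quantities share no library. This is a correlation across genes, which are not independent replicates.

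At day 7, 20 Nduf genes were lower after C70 (4.85% of all genes) and none was higher (14.3% of all genes). By adjusted P alone 36 were lower (18.8% of all genes). All 46 values were below 0, with a median of -0.31 against 0.00 over all genes. In 25 genes the groups did not overlap, against 12.8% of all genes. Without vehicle replicate 1, 7 genes were called, all among the 20, 42 values were below 0 with a median of -0.18, and 29 were lower by adjusted P alone. Without that library and C70 replicate 2, 9 were called. The shares of all genes called in these fits were not counted.

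The 7 genes called at day 7 with and without vehicle replicate 1 were Ndufa3, Ndufa5, Ndufa6, Ndufb7, Ndufb10, Ndufs7 and Ndufaf4. Ndufa6, an accessory subunit of the peripheral arm, read 230, 170, 167 and 195 CPM in vehicle and 127, 145, 123 and 132 CPM after C70 (-0.53 ± 0.072, adjusted P = 5.61e-07), and its log2 fold change was -0.42 without the library. Ndufa5, another accessory subunit of that arm, read 154, 104, 111 and 107 CPM against 76.9, 93.0, 74.1 and 79.5 CPM, the largest difference of the day (-0.56 ± 0.081, and -0.40 without the library). Ndufaf4 did not depend on that library: it read 47.2, 48.4, 48.4 and 45.2 CPM in vehicle and 36.1, 38.5, 34.3 and 30.0 CPM after C70 (-0.45 ± 0.062, and -0.44 without it). In each of these genes all vehicle libraries were above all C70 libraries.

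Core genes divided at day 7. Ndufs7 remained lower, at 184, 134, 137 and 151 CPM in vehicle and 104, 120, 106 and 100 CPM after C70 (-0.49 ± 0.072, adjusted P = 1.91e-06). Ndufs8 (-0.33 ± 0.071) and Ndufv2 (-0.36 ± 0.066) were called with all libraries but did not pass the fold threshold without vehicle replicate 1 (-0.20 and -0.24). Ndufs1 read 425, 421, 417 and 380 CPM in vehicle and 400, 384, 390 and 373 CPM after C70 (-0.09 ± 0.040, adjusted P = 0.0842), with overlapping groups. Ndufaf1, lower at day 2, was at -0.09 ± 0.068 (adjusted P = 0.315).

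The change of the C70 difference between days was tested directly. Between days 2 and 7 it moved up for 5 genes and down for 2, against 16.5% and 13.9% of all genes. It moved up for Ndufaf1 (by 0.42 on the log2 scale), Ndufs1 (0.35), Ndufa9 (0.29) and Ndufaf7 (0.28), among others, and down for Ndufa6 (-0.30) and Ndufaf4 (-0.26). Ndufs1 and Ndufa9, which moved up, belong to the peripheral arm, but so does Ndufa6, which moved down. Ndufaf7 is a methyltransferase that acts on that arm. Between days 1 and 2 it moved down for Ndufaf1 (-0.39), Ndufs3 (-0.36) and Ndufs1 (-0.25), 3 genes against 8.77% of all genes. Between days 0 and 1 it moved down for Ndufb10 (-0.36) and Ndufv2 (-0.30), 2 genes against 8.81% of all genes. At both steps none moved up, against 11.1% of all genes. Without vehicle replicate 1 at day 7, 16 genes passed the test between days 0 and 1, 15 between days 1 and 2 and 16 between days 2 and 7. The libraries of all days share a single estimate of the spread. The share of all genes passing in that fit was not counted, so these counts cannot be set against those of other genes.

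The genes called at days 2 and 7 had 8 genes in common (Ndufs7, Ndufs8, Ndufv2, Ndufb7, Ndufb9, Ndufs6, Ndufaf6 and Ndufb1-ps), 36.4% of the 22 at day 2 and 40% of the 20 at day 7. Ndufs8 and Ndufaf6 were the only genes called at all of days 1, 2 and 7. Without vehicle replicate 1 at day 7, 19 genes were called at day 2 and 7 at day 7, of which 2 (Ndufs7 and Ndufb7) were shared, and neither Ndufs8 (-0.20) nor Ndufaf6 (-0.27) was called at day 7. Across the 46 genes the log2 fold changes at days 2 and 7 had a Pearson's r of 0.05 (0.57 over all genes), and those at days 1 and 2 an r of 0.40 (0.75 over all genes), as a description across genes with narrow ranges.

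The Nduf genes rose in C70-pretreated cells as well. From day 1 to day 2, 39 genes were higher in them (18.8% of all genes) with a median of 0.53, and from day 2 to day 7, 29 were higher (27.6% of all genes) with a median of 0.46. At day 7 the 46 genes summed to 4895 to 5443 CPM after C70 and to 5607 to 7434 CPM in vehicle, so the groups did not overlap in the sum.

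**Figure D4:**
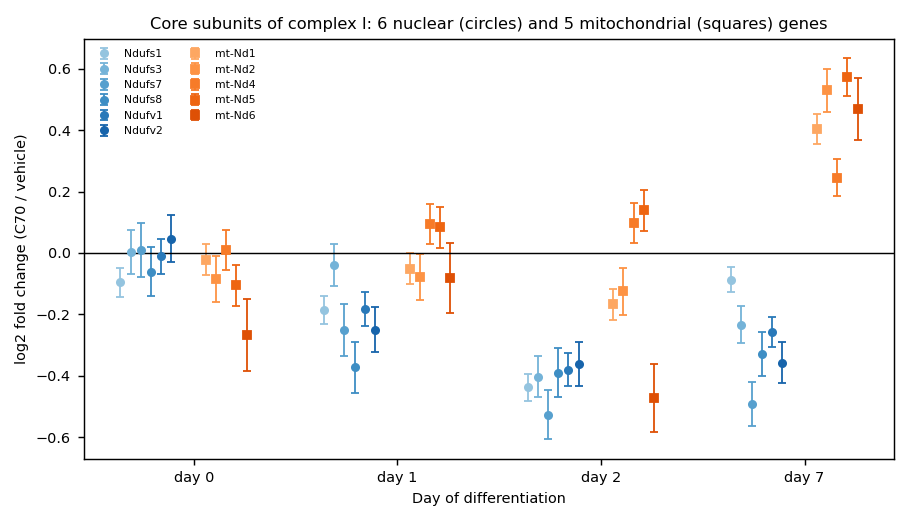
Log2 fold change between C70 and vehicle for 6 of the 7 nuclear (circles) and 5 mitochondrial (squares) core subunit genes at each day. Bars are 1 standard error of the fit. At day 7 the nuclear values lie between -0.49 and -0.09 and the mitochondrial values between 0.24 and 0.57. Under quantile normalization mt-Nd1 changes sign at that day, and mt-Nd1, mt-Nd4 and mt-Nd5 do not pass by adjusted P.

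In the main fit the mitochondrially encoded core subunits went the other way at day 7. Under quantile normalization this held by adjusted P only for mt-Nd2 and mt-Nd6. Of 7 mt-Nd genes, 5 were in the table (mt-Nd3 and mt-Nd4l were not analysed here). At day 7, 4 of the 5 were higher after C70 (14.3% of all genes) and all 5 by adjusted P alone (22.3% of all genes), with a median of 0.47 on the log2 scale. mt-Nd5, a proton pump subunit, read 7403, 6893, 7694 and 8645 CPM in vehicle and 11639, 11892, 10919 and 11092 CPM after C70 (0.57 ± 0.062, adjusted P = 7.90e-09). mt-Nd1 read 7583, 7001, 7732 and 7612 CPM against 9749, 10886, 9981 and 8986 CPM (0.40 ± 0.047, adjusted P = 4.20e-08). All C70 libraries were above all vehicle libraries for both genes. mt-Nd2 (0.53 ± 0.070) and mt-Nd6 (0.47 ± 0.10) were also called, and mt-Nd4 passed the first threshold alone (0.24 ± 0.060). Under DESeq2 size factors the 5 values lay between 0.25 and 0.58. Under quantile normalization mt-Nd1 was at -0.07, the others lay between 0.07 and 0.48, the median was 0.13 and mt-Nd6 alone was called. There mt-Nd5 (0.13, adjusted P = 0.22 in limma), mt-Nd4 (0.07, adjusted P = 0.32) and mt-Nd1 (adjusted P = 0.35) did not differ between the groups by adjusted P. Without vehicle replicate 1, 4 were called and the median was 0.43.

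Before day 7 the mt-Nd genes as a set showed no such rise. Their median log2 level relative to vehicle at day 0 was 0.46 ± 0.046 in vehicle and 0.41 ± 0.054 after C70 at day 1 (SD). At day 1 mt-Nd4 alone read higher in all C70 libraries, at 2662, 2740, 2575 and 2645 CPM against 2488, 2417 and 2557 CPM in vehicle (24.4% of all genes). At day 2 mt-Nd6, which lies on the other strand of the mitochondrial genome, was lower, at 170, 173 and 197 CPM in vehicle and 150, 142, 107 and 120 CPM after C70 (-0.47 ± 0.11, adjusted P = 6.79e-04). mt-Nd1 was lower by adjusted P alone (-0.17 ± 0.051) and the other 3 were not called. Of these, mt-Nd5 read 7994, 8145 and 8561 CPM in vehicle and 9501, 9689, 8517 and 8550 CPM after C70, with overlapping groups. The change of the C70 difference from day 2 to day 7 passed the test for mt-Nd6 (0.94), mt-Nd2 (0.66), mt-Nd1 (0.57) and mt-Nd5 (0.43).

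Assembly factors that do not carry the Nduf name were counted over a list of 12, of which 11 were in the table. At day 2, 4 were lower after C70, against 13.6% of all genes: Nubpl (-0.46 ± 0.14), which delivers iron-sulfur clusters, Foxred1 (-0.43 ± 0.051), Ecsit (-0.34 ± 0.080) and Acad9 (-0.32 ± 0.061). Acad9 and Ecsit are partners of Ndufaf1. At day 1, 1 was lower (Ecsit, -0.33 ± 0.091), against 7.8% of all genes. At day 7 the single call was Acad9, which was higher (0.33 ± 0.058, adjusted P = 3.45e-05), against 14.3% of all genes. The median over the 11 was -0.26 at day 2 and -0.13 at day 7 (-0.04 without vehicle replicate 1), against -0.31 at both days for the 46 Nduf genes.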

How the data were processed

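Per the labels and the methods, reads had been aligned by the authors to GRCm38 with STAR 2.7.2a. The program used for counting, and its use of strand, are not given in the sources used here, although the kit was strand-specific. The deposited values were whole-number counts per gene, not scaled, for a set of 11959 genes. Symbols came from GENCODE M21 (11953 genes; 6 had none).

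All 29 libraries entered a single fit of group means (R 4.3.3, edgeR 4.0.16, two-sided quasi-likelihood test, trimmed mean of M values factors). Adjusted P values follow Benjamini and Hochberg, over all genes of a comparison. Genes were called at adjusted P under 0.05 and fold change over 1.25, and differences of the C70 effect between days at adjusted P under 0.05. Errors of log2 fold changes are standard errors. CPM used the same factors, and levels per kilobase the length of the shortest principal transcript. In simulated data for day 2, with 200 of 11959 genes changed 2-fold, 100% were recovered with 5 false calls. The changed genes were above 5 CPM, and no other difference between groups was simulated. Recovery at fold changes as small as those of the Nduf genes at day 2 was not tested separately. Total counts of 16320275 to 24037170 set the precision.

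The members and lists were chosen with earlier results of these data known, and the motifs after sequences had been looked at. The values of 1 core gene are not reported here, although it is in all counts. Genes named with values were the other core genes, all Ndufaf genes, Ndufa4, in each C70 comparison the 2 accessory genes of lowest and the 2 of highest log2 fold change, and genes of the context lists. Ndufb10 and Ndufc2 were named after their values were seen. Alternatives were other thresholds, size factors of DESeq2 1.42.0, quantile normalization, removal of low genes, the DESeq2 test, limma-voom (limma 3.58.1), a replicate block, fits by day and leaving out each library.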

Additional observations from a re-analysis of the deposited data

Results flagged for a closer look

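Dixon's criterion was applied to the named genes and class medians within each group of 4 libraries, 160 sets of values. In 14 sets a library had a gap to the nearest other that was large for the range of the group. Independent sets would give about 8 by chance, but these sets share their libraries and are not independent. Vehicle replicate 1 at day 7 was the highest of its group in 8 of the 14: Ndufv1 (458 CPM), Ndufa4 (326), Ndufs3 (253), Ndufa5 (154), Ndufb7 (130.3), Ndufa11 (107), Ndufaf7 (60.3) and Ndufaf8 (12.4). Vehicle replicate 4 at that day was lowest for Ndufs1 (380 CPM), and C70 replicate 2 highest for Ndufs5 (28.3 CPM). At day 2, C70 replicate 1 was lowest for Ndufaf4 (32.7 CPM) and Ndufa7 (75.5 CPM). At day 1, C70 replicate 3 was highest for Ndufs1 (117 CPM) and Ndufs7 (39.6 CPM).

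The C70 difference changed between days by its own test in 12 cases of Nduf genes, of which 11 are given. From day 0 to day 1 it moved by -0.30 on the log2 scale for Ndufv2 and -0.36 for Ndufb10. From day 1 to day 2 it moved by -0.36 for Ndufs3, -0.25 for Ndufs1 and -0.39 for Ndufaf1. From day 2 to day 7 it moved by 0.29 for Ndufa9, -0.30 for Ndufa6, 0.28 for Ndufaf7, 0.35 for Ndufs1, 0.42 for Ndufaf1 and -0.26 for Ndufaf4. Among the mt-Nd genes the change from day 2 to day 7 was 0.57 for mt-Nd1, 0.66 for mt-Nd2, 0.43 for mt-Nd5 and 0.94 for mt-Nd6. What these changes rest on was not tested.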

How the results depend on the processing

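For single genes, 4032 of 4116 alternative values kept their direction and side of the threshold, 49 lost the call, 19 gained it and 16 changed sign. Many of these alternatives left out a library of a day outside the comparison. Such fits keep all compared libraries and could hardly differ, so the total does not measure how stable the calls are. At day 7, for example, 20 Nduf genes were called in every fit without a library of day 0, 1 or 2. By adjusted P alone, C70 changed 2, 21, 34 and 36 Nduf genes at days 0, 1, 2 and 7, and with a fold change over 1.5 it changed 0 at each of days 1, 2 and 7. With that threshold 12 genes were called in vehicle from day 0 to day 1 and 15 from day 2 to day 7. Leaving out each library gave 0 to 1 genes at day 0, 3 to 8 at day 1, 19 to 23 at day 2 and 7 to 28 at day 7. Without vehicle replicate 1 and C70 replicate 2 at day 7, an alternative chosen after seeing the data, it was 9. The changes of the C70 difference were called for 0 to 16, 3 to 15 and 5 to 16 genes from days 0 to 1, 1 to 2 and 2 to 7, with the highest counts without vehicle replicate 1 at day 7, and the median of the last ranged from -0.065 to 0.14. The shares of all genes in the fits that left out a library were not counted, and the cause was not tested.

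Replicate numbers did not pair the samples (13 pairs, correlations from -0.18 to 0.20, 2 over 0.1, and 4 pairs in which the best match had the same number). A replicate block changed the count from days 0 to 1 to 1 and no other count by over 1.5 times.

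Values near 0 changed sign. Under quantile normalization Ndufb4 and Ndufaf3, C70 versus vehicle at day 1, became -0.023 and -0.096, and Ndufaf2 at day 2 became -0.00245. Leaving out single libraries gave -0.060 to 0.083 for Ndufaf3 at day 1, and at day 2 -0.020 to 0.020 for Ndufa7 and -0.00224 to 0.055 for Ndufaf2. At day 7 it gave -0.155 to 0.036 for Ndufa1, -0.067 to 0.052 for Ndufaf7 and -0.306 to 0.0063 for Ndufaf8, the highest in each case without vehicle replicate 1. Without C70 replicate 2 as well, Ndufaf7 was at 0.029.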
